A study of Mus musculus with 12 samples.

Results

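The regions bound by Ikaros in mouse bone-marrow-derived macrophages were compared between cells stimulated with lipopolysaccharide (LPS) for 3 h and resting cells (LPS for 0 h). The comparison used the library titled as wild type, 3 h LPS, Ikaros and the library titled as wild type, 0 h LPS, Ikaros. Any region that shared at least 1 bp with a region of untreated wild-type input DNA was dropped. This left 7109 Ikaros regions at 3 h and 853 at 0 h, together 7962 of the 49690 regions left after the same step in the immunoprecipitated lists of the series. The series maps the binding of Ikaros and of RelA, the NF-kB subunit, through the LPS response by chromatin immunoprecipitation and sequencing (ChIP-seq). All cells came from mice of the C57BL/6J strain. The Ikaros libraries and the input carry the genotype label wild type, and the Ikaros antibody was a goat polyclonal. For readouts outside the comparison, the Ikaros library at 8 h, the RelA libraries of wild-type cells at 0, 3 and 8 h and the RelA library of littermate control cells at 3 h were used.

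Ikaros is a zinc finger DNA-binding protein encoded by Ikzf1. It is best known for its part in the development of lymphocytes, and it recruits chromatin-remodelling complexes such as NuRD to its sites, where it can repress or activate genes. Macrophages sense LPS, which comes from the envelope of Gram-negative bacteria, through a Toll-like receptor. The signal sends NF-kB dimers that contain RelA into the nucleus, where they bind and activate inflammatory genes.

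Each list holds regions enriched for sequence tags, called hotspots, from 1 library per group. No spread between replicates could therefore be measured, and no test between the times is given. Intervals in brackets are 95% exact intervals that cover counting error over regions alone. Neighbouring regions are not independent. The title gave each library its time. The file name of the library titled 0 h gives 3 h instead, so every comparison of the times rests on the titles. Read depth is unknown. The weakest region listed had a z score of 9.82 at 3 h and 9.90 at 0 h, so both lists ended at nearly the same z score, a value of the authors that is used here to rank and filter regions within a list and not to measure change between libraries. The median of MaxD, the highest tag density of a region, was 22.04 at 3 h and 21.63 at 0 h. The scale of MaxD is not stated, so it was used to rank regions within a list. The input removed 52 of 7161 regions at 3 h and 51 of 904 at 0 h. The removed regions held the 20 highest z scores of both lists, up to 1518 at 3 h and 1265 at 0 h.

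Stimulated cells kept most Ikaros regions of resting cells on their list and added many others. Of the 7109 regions at 3 h, 6359 met no region of resting cells and are called gained here. That is 89.4% of the 3 h list, and the count follows from the class rule. The other 750 regions at 3 h overlapped 757 of the 853 resting regions by 1 bp or more and are called shared. The 96 resting regions with no counterpart at 3 h are called resting-only and make up 11.3% of the 0 h list. Counterparts were more frequent among strong regions in both lists. In the quintile of 3 h regions with the highest z scores, 34.7% (32.2 to 37.2) were already listed at 0 h, against 1.13% (0.645 to 1.82) in the lowest quintile. In the 0 h list 98.8% (95.8 to 99.9) of the strongest quintile were listed at 3 h, and 81.3% (74.6 to 86.8) of the weakest. Of the 100 strongest regions at 3 h, 69 were shared, and so were 421 of the 1000 strongest. The shares depended on the length of the 3 h list. With that list held to its 853 strongest regions by z score, 45.6% (42.2 to 49.0) of its regions were already listed at 0 h, and 46.4% (43.0 to 49.8) of the 0 h regions were listed at 3 h.

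Gained regions were narrower and weaker than shared regions of the same 3 h list. Their median width was 512 bp (quartiles 378 and 632), against 699 bp (quartiles 605 and 821) for shared regions. The difference of the medians was -187 bp (-204 to -170). The median z score was 13.2 for gained and 24.0 for shared regions, a difference of -10.9 (-11.8 to -9.56). Ranked by MaxD within the 3 h list, the median gained region stood at the 45.5th percentile and the median shared region at the 87.8th. The top quintile by MaxD held 14.9% (14.1 to 15.8) of gained and 62.9% (59.4 to 66.4) of shared regions. Gained regions with a z score above the shared median numbered 399, or 6.27% (5.69 to 6.90) of them. The order of widths depended on the length of the 3 h list. With that list held to its 853 strongest regions by z score, the median width of gained regions minus that of shared regions was 17 bp (-7.41 to 41.8).

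**Figure D1:**
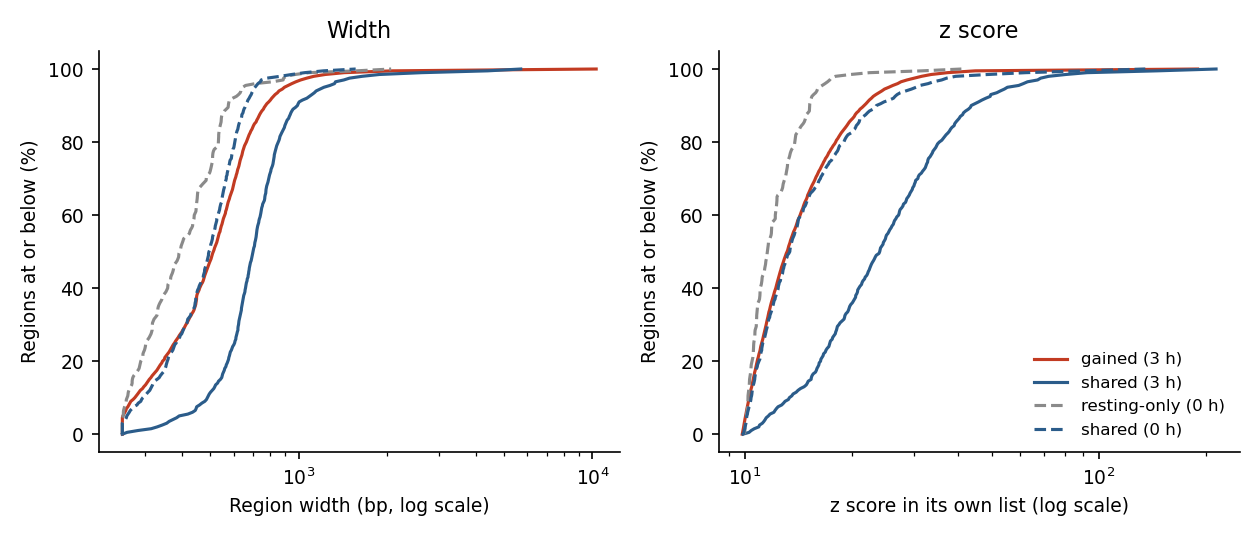
Cumulative share of regions (vertical axis, %) by width (left, bp, log scale) and by z score within the region's own list (right, log scale). Solid lines show the 3 h list, gained (n = 6359) and shared (n = 750), and dashed lines the 0 h list, resting-only (n = 96) and shared (n = 757). The shared curve at 3 h lies to the right of the gained curve in both panels, with medians of 699 bp against 512 bp for gained regions.

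The strongest Ikaros regions present at both times included a broad region and several narrow ones. First by z score at 3 h was the region from 35334713 to 35339904 on chromosome 17 (mm9, as are all coordinates given here), with a width of 5191 bp and a z score of 214. In resting cells it corresponded to a pair of small regions of 739 and 251 bp, with z scores of 15.3 and 9.98. By z score these stood 268th and 842nd of the 853 resting regions. The next 5 shared regions were narrow and ranked high in both lists. The region from 3754148 to 3754794 on chromosome 8 had z scores of 176 at 3 h and 124 at 0 h. On chromosome 10, the region from 11211582 to 11212153 had 175 at 3 h and 135 at 0 h. On chromosome 3, the region from 61962875 to 61963440 had 172 at 3 h and 130 at 0 h. These 3 stood among the first 3 by z score in resting cells as well. On chromosome 13, the region from 113368245 to 113368605 had 137 at 3 h and 107 at 0 h. On chromosome 18, the region from 85867165 to 85867840 had 133 at 3 h and 87.3 at 0 h. None of these 5 narrow regions met RelA in wild-type cells at 3 or 8 h, and all 5 were listed again for Ikaros at 8 h. They were the 5 strongest regions of resting cells. The nearest input region lay 17.4 kb away on chromosome 18, and between 997 and 10552 kb away for the other 4.

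Shared regions were mostly wider at 3 h than at 0 h with centres close together. A total of 746 regions at 3 h met exactly 1 resting region, and these pairs had a median width of 697.5 bp at 3 h and 494.5 bp at 0 h. In 653 of the 746 pairs, 87.5%, the 3 h region was the wider, and the median ratio of the widths was 1.41 (quartiles 1.16 and 1.90). The resting region lay wholly inside the 3 h region in 571 pairs. The centres lay a median of 37 bp apart. The order of the pairs by MaxD was partly the same at both times. Spearman's rho across the 746 pairs was 0.45, where the points share the library at each time. Of the 10 pairs ranked first at 3 h, 7 were among the first 10 at 0 h, and 55 of the first 100 at 3 h were among the first 100 at 0 h. The part of sequencing depth in the widths was not tested.

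Ranks within the 746 pairs moved differently with and without RelA, the factor that LPS brings to chromatin. Pairs that met a wild-type RelA region at 3 h ranked higher by MaxD at 3 h than at 0 h in 194 of 262 cases, 74.0% (68.3 to 79.2). Pairs without RelA did so in 164 of 484 cases, 33.9% (29.7 to 38.3). Because a pair low in the resting order has more room to rise, the comparison was repeated within the upper and lower 50% of the resting order. In the upper part 62.8% (53.2 to 71.7) of 113 pairs with RelA and 16.5% (12.2 to 21.6) of 260 pairs without it stood higher at 3 h. In the lower part the shares were 82.6% (75.5 to 88.3) of 149 pairs with RelA and 54.0% (47.3 to 60.7) of 224 without. Widths differed in the same direction. The 3 h region was wider in 258 of 262 pairs with RelA, with a median ratio of 1.67 (1.61 to 1.77), and in 395 of 484 pairs without, with a median ratio of 1.29 (1.24 to 1.32). The median width at 3 h was 823 bp with RelA and 648 bp without, while at 0 h it was 494.5 bp in both sets. A rank within the pairs is a place in an order and not an amount of binding, and a wider region has more bases that can meet a RelA region.

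The pair that climbed most was the region from 56587307 to 56593007 on chromosome 12, which stood 15th of the 746 pairs at 3 h and 667th at 0 h. It was 5700 bp wide at 3 h and 353 bp at 0 h, and it carried RelA at 3 h. Next was the region from 86610910 to 86611806 on chromosome 7, which stood 63rd at 3 h and 683rd at 0 h and also carried RelA. The third, from 70067340 to 70068292 on chromosome 11, stood 123rd at 3 h and 707th at 0 h and met no RelA region. The 3 pairs that dropped furthest all lacked RelA at 3 h, as did 484 of all 746 pairs. The region from 109745963 to 109746531 on chromosome 7 stood 662nd at 3 h and 49th at 0 h. That from 75640822 to 75641318 on chromosome 15 stood 715th at 3 h and 130th at 0 h, and that from 4912290 to 4912893 on chromosome 11 stood 621st at 3 h and 61st at 0 h.

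Resting-only regions were few and weak, and most of them were listed again at 8 h, though less often than shared regions. Their median z score was 11.6, against 13.4 for the shared regions of the same 0 h list, a difference of -1.82 (-2.42 to -1.03). Their median width was 393.5 bp, against 495 bp for shared regions, a difference of -101.5 bp (-144 to -47.2). The lowest MaxD quintile of the 0 h list held 35.4% (25.9 to 45.8) of resting-only and 18.1% (15.4 to 21.0) of shared regions. At 8 h, 60 of the 96 resting-only regions, 62.5% (52.0 to 72.2), met an Ikaros region. The share was 97.9% (96.6 to 98.8) of the 757 shared regions of the 0 h list. Absence of a resting-only region at 3 h was thus not followed by absence at 8 h in most cases. Only 4 of the 96, 4.17% (1.15 to 10.3), met a RelA region at 3 h, against 35.8% (32.4 to 39.3) of the 757 shared regions of the 0 h list. Resting-only regions were weaker and narrower, so the shares were also set side by side within quintiles of 0 h z score. In the weakest quintile 2 of 32 resting-only regions, 6.25% (0.766 to 20.8), and 41 of 139 shared regions, 29.5% (22.1 to 37.8), met RelA. The resting-only share was the lower in all 5 quintiles, but the interval of the difference included 0 in the 2 strongest, which held 15 and 2 resting-only regions. Shared regions that were weak at 3 h also seldom met RelA, in 0 of 16 and 3 of 42 cases in the 2 weakest quintiles of the 3 h list.

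The strongest resting-only region was an exception in strength. It ran from 116712579 to 116714643 on chromosome 10, was 2064 bp wide and so the widest of the resting list, and had a z score of 40.9, the 14th highest of 853. No region at 3 h met it, while 2 regions did at 8 h, the stronger with a z score of 36.9. The next, from 92708602 to 92709237 on chromosome 5, had a z score of 21.5 at 0 h and returned at 8 h with 31.1. That from 147281935 to 147282468 on chromosome 7 had 16.7 at 0 h and 13.7 at 8 h. The other 2 of the 5 strongest, from 5841270 to 5841938 on chromosome 19 (z score 17.6) and from 38928598 to 38928965 on chromosome 3 (z score 17.3), were not listed at 8 h. The last of these ranked 849th of 853 by MaxD, with a density of 6.15, so its z score and its density stood far apart.

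The strongest gained regions were broad. The region from 92773991 to 92778167 on chromosome 5 was 4176 bp wide and had a z score of 190, the second highest of the whole 3 h list, yet its nearest resting region lay 64.8 kb away. The region from 83475751 to 83479824 on chromosome 11 was 4073 bp wide, with a z score of 91.5. The region from 103450319 to 103459810 on chromosome 14 was 9491 bp wide, with a z score of 81.1. These 3 regions were each wider than any region at 0 h. A further region on chromosome 11, from 83336475 to 83344401, was 7926 bp wide, with a z score of 67.9. The widest region of all ran from 27125445 to 27135741 on chromosome 12, was 10296 bp wide and had a z score of 65.3, and its nearest resting region lay 2185 kb away. All 5 met RelA at 3 h, the last with 8 separate RelA regions. All 5 were listed again for Ikaros at 8 h. The region on chromosome 14 was then 9540 bp wide, whereas the place of the widest region was taken by 8 regions of at most 1634 bp.

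By count, most broad Ikaros regions of this comparison were in the 3 h list, which was also much the longer. Regions of 2 kb or more, a width chosen after the lists were seen, numbered 47 of 7109 at 3 h, 0.661% (0.486 to 0.878), and 1 of 853 at 0 h, 0.117% (0.00297 to 0.651). The intervals of these shares overlapped. At 3 kb or more there were 26 at 3 h, and 0 of 853 at 0 h (0 to 0.432%). The 47 comprised 37 gained and 10 shared regions, and 42 regions at 3 h were wider than the widest at 0 h. By z score, 44 of the 47 lay in the strongest quintile of the 3 h list, and 37 were still present when that list was held to its 853 strongest regions. That cut was by z score, in which broad regions stood high, so the 37 do not allow for list length. The 47 regions had a median z score of 40.4, and those under 2 kb one of 13.6. Regions of 2 kb or more were also found in the input (24 of 765), the wild-type RelA list at 3 h (22 of 4972) and the Ikaros list at 8 h (40 of 13796), while the RelA list at 8 h held 1 of 1878. Of the 47 at 3 h, 24 met an 8 h region that was itself 2 kb or more.

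**Figure D2:**
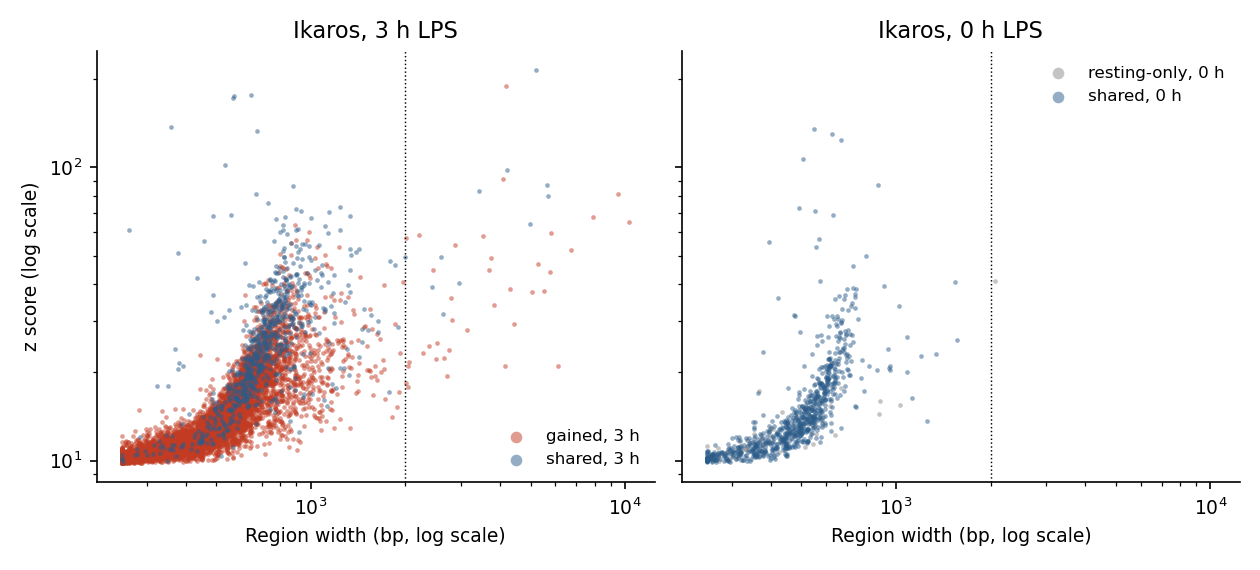
Width (horizontal axis, bp, log scale) and z score (vertical axis, log scale) of each Ikaros region at 3 h (left) and 0 h (right). Points are regions, coloured as gained (n = 6359) or shared (n = 750) at 3 h and resting-only (n = 96) or shared (n = 757) at 0 h, and the dotted line marks 2 kb. To its right lie 47 regions at 3 h and 1 at 0 h, and the narrow regions with the highest z scores are shared at both times.

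Nearly all broad regions also carried RelA. Of the 47, 45 met a wild-type RelA region at 3 h, 95.7% (85.5 to 99.48), against 37.1% of all 3 h regions and 36.7% (35.5 to 37.8) of those under 2 kb. These backgrounds hold many weaker regions. In the strongest z score quintile, where 44 of the 47 lay, 61.4% of all gained and 45.0% of all shared regions met RelA. A wide region has more bases that can meet another. Per base, RelA regions at 3 h covered 60.4% of these 47 regions and 33.1% of the 3 h regions under 2 kb. In the class next in width, 1 kb to under 2 kb, 67.7% (60.0 to 74.7) of gained and 78.3% (65.8 to 87.9) of shared regions met RelA. Of the 47, 17 met a RelA region that was itself 2 kb or more. At 8 h, Ikaros regions covered 74.9% of the bases of the 47, against 79.8% of the bases of those under 2 kb.

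Several broad regions stood side by side. When regions no more than 1 kb apart were joined, 19 of 6683 stretches at 3 h were 5 kb or more, against 1 of 840 at 0 h. The joined lists thus differed much in length. All 19 met RelA at 3 h, and 7 contained a resting region. The shares over all 6683 stretches are not given here. Of the 3 h regions before joining, 37.1% met RelA and 10.55% met a resting region. A long stretch has more bases that can meet a RelA region. Per base, RelA regions at 3 h covered from 11.3% to 96.2% of a stretch, and 28.8% of the longest. They covered 33.1% of the 3 h regions under 2 kb. The longest ran from 97666525 to 97684779 on chromosome 16, where 3 Ikaros regions spanned 18254 bp with no resting region inside, and the nearest resting region lay 71.6 kb away. The next, of 16075 bp, ran from 27125445 to 27141520 on chromosome 12 and joined the widest region to its neighbour, and 11 RelA regions met it. Another, from 112680671 to 112695336 on chromosome 12, spanned 14665 bp and held 1 resting region. The stretch from 103445942 to 103459810 on chromosome 14 spanned 13868 bp, and Ikaros regions covered 99.05% of it at 8 h, against 61.7% of the stretch of 16075 bp.

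In 4 places a region at 3 h spanned more than 1 resting region. The clearest was the region from 143663104 to 143668742 on chromosome 5, which was 5638 bp wide with a z score of 86.8 at 3 h. It covered 5 resting regions of 1203, 251, 394, 257 and 618 bp, whose z scores ran from 10.1 to 22.7. These 5 resting regions formed the single stretch of 5 kb or more at 0 h. The other 3 places held 2 resting regions each and lay on chromosomes 4, 17 and 19. No resting region met more than 1 region at 3 h.

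Within quintiles of z score, gained regions carried RelA more often than regions that Ikaros already held in resting cells. Over all regions the classes looked alike, since 37.2% (36.0 to 38.4) of gained and 35.5% (32.0 to 39.0) of shared regions met a wild-type RelA region at 3 h. The share with RelA was larger among stronger Ikaros regions, and shared regions were mostly strong. Within each of the 5 quintiles of Ikaros z score gained regions had the higher share. In the strongest quintile 61.4% (58.1 to 64.5) of 929 gained and 45.0% (40.6 to 49.5) of 493 shared regions met RelA, a difference of 16.3 percentage points (10.8 to 21.8). In the next quintile it was 48.4% (45.6 to 51.2) of 1272 gained and 21.3% (15.1 to 28.8) of 150 shared regions, a difference of 27.1 points (19.2 to 33.9). In the middle quintile the shares were 35.8% (33.2 to 38.4) of gained and 18.4% (8.76 to 32.0) of 49 shared regions. The order of the classes was thus the same in these 3 quintiles. In the second weakest quintile the shares were 27.4% (25.1 to 29.8) of gained and 7.14% (1.498 to 19.5) of 42 shared regions. In the weakest quintile 22.3% (20.1 to 24.5) of gained and 0 of 16 shared regions (0 to 20.6%) met RelA. Weighted by the number of shared regions in each quintile, the difference was 18.9 points (14.7 to 22.8). By width the order was not the same throughout. Gained regions had the higher share under 500 bp, at 24.7% (23.1 to 26.2) of gained and 5.81% (1.91 to 13.0) of shared regions. The same held from 500 bp to under 1 kb, at 47.0% (45.3 to 48.8) of gained and 34.3% (30.5 to 38.3) of shared regions. From 1 kb to under 2 kb the order was the opposite, with overlapping intervals, at 67.7% of gained and 78.3% of shared regions. At 2 kb or more, 35 of 37 gained and 10 of 10 shared regions met RelA.

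The direction was the same when regions were grouped by MaxD in place of z score, with a difference of 16.5 points, and against RelA of littermate control cells at 3 h, with 13.3 points. The interval included 0 in the second weakest MaxD quintile, at 3.89 points (-13.1 to 17.0). For littermate RelA it did so in the weakest z score quintile, at 9.03 points (-11.6 to 10.7). Littermate RelA met 17.5% of all 3 h regions, against 37.1% for wild-type RelA. Before LPS, RelA was listed at few places in wild-type cells and met 19 of the 6359 gained regions, 0.299% (0.180 to 0.466), and 16 of the 750 shared regions, 2.13% (1.22 to 3.44). At 8 h RelA met 14.3% (13.5 to 15.2) of gained and 16.0% (13.4 to 18.8) of shared regions. Gained regions with RelA at 3 h were wider and stronger than those without. Their median width was 595 bp, against 469 bp without RelA, and their median z score 15.03, against 12.33 without.

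**Figure D3:**
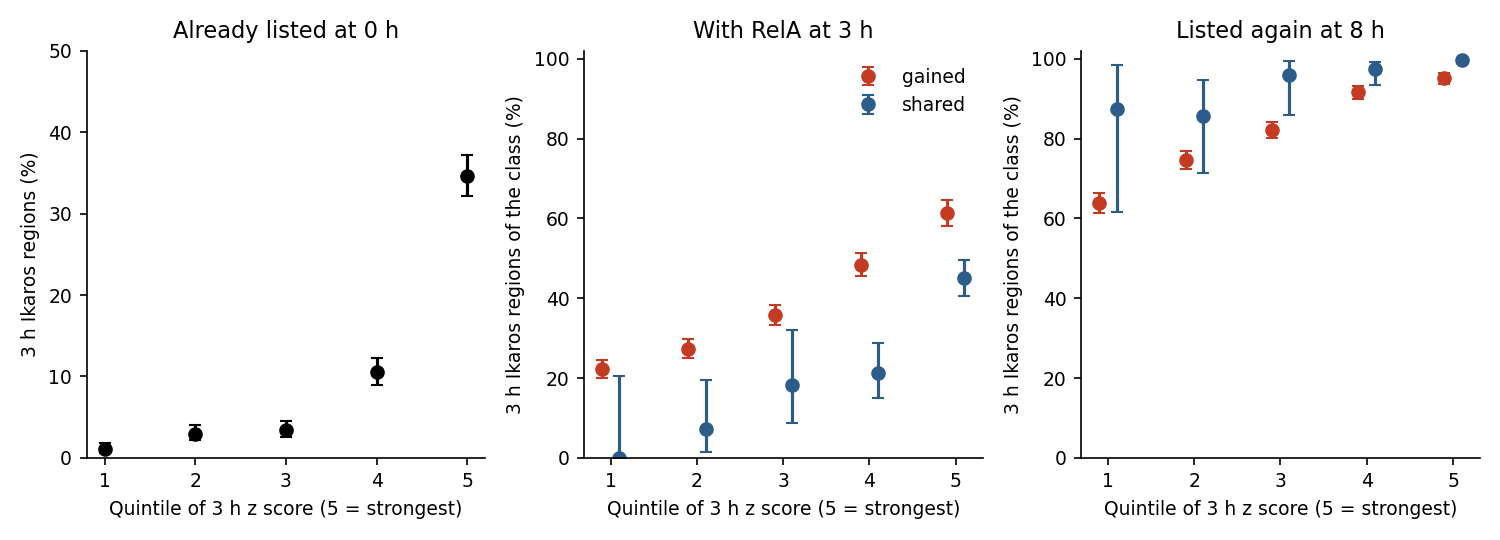
Ikaros regions at 3 h by quintile of their z score (horizontal axis, 5 is strongest). Panels give, in %, the share already listed at 0 h (left, axis to 50%), the share of gained and of shared regions that met RelA at 3 h (middle) and the share listed again at 8 h (right), with 95% exact intervals as bars. Gained regions lie above shared regions in the middle panel, by 16.3 percentage points in the strongest quintile, and below them in the right panel.

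Shared regions were listed again at 8 h more often than gained ones. Of all 3 h regions 82.1% were listed at 8 h. The share was 80.3% (79.3 to 81.3) of gained and 98.0% (96.7 to 98.9) of shared regions. Among gained regions it was 63.8% (61.2 to 66.3) in the weakest quintile of z score and 95.2% (93.6 to 96.4) in the strongest. In the strongest quintile 492 of 493 shared regions were listed, 99.8% (98.9 to 99.99), and the difference, gained minus shared, was -4.64 points (-6.24 to -3.06). In the weakest quintile the share was 87.5% (61.7 to 98.4) of 16 shared regions, and the interval of the difference included 0 there and in the next quintile. The 8 h list held 13796 regions and was the longest of the Ikaros lists.

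Most gained regions lay far from any resting region. The median distance to the nearest was 539 kb (507 to 573), with quartiles of 134 and 1626 kb. Within 1 kb of a resting region lay 46 gained regions, 0.723% (0.530 to 0.964), within 10 kb 357, 5.61% (5.06 to 6.21), and within 100 kb 1367, 21.5% (20.5 to 22.5). Counting shared regions too, 15.6% of the 3 h list lay on or within 10 kb of a resting region. Those shares exceeded the share of chromosome length at the same distance. The stretches within 10 kb of a resting region made up 0.632% of chromosome length, and those within 100 kb 5.53%. With z scores of at least 15 in both lists, which leaves fewer resting regions, 2.72% (2.13 to 3.42) of gained regions lay within 10 kb and the median distance was 2119 kb.

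Other lists also lay near resting regions, though less often. Among the 7914 Ikaros regions first listed at 8 h, 4.20% (3.76 to 4.66) lay within 10 kb of a resting region, and the difference, gained minus late, was 1.42 points (0.696 to 2.15). Among the 2284 wild-type RelA regions at 3 h with no Ikaros at 3 h or 0 h it was 3.33% (2.63 to 4.15), and the difference, gained minus RelA, was 2.29 points (1.30 to 3.20). With the 3 h list held to the 853 strongest by z score, the intervals of both differences included 0. Both comparison sets were then formed anew against the shortened list, so they could include regions that met the full 3 h list. Resting regions had another resting region within 10 kb in 8.32% (6.56 to 10.4) of cases. Of gained regions, 4.91% (3.84 to 6.17) in the weakest and 6.78% (5.25 to 8.59) in the strongest z score quintile lay within 10 kb, with overlapping intervals. Strength was not matched between gained regions and the other lists. Of the 6359 gained regions, 679 had another gained region within 1 kb and 2324, 36.5% (35.4 to 37.7), within 10 kb. This share is not comparable with that near the 853 resting regions, since the lists differ in length. Seen from the resting list, 235 of 757 shared regions, 31.0% (27.8 to 34.5), and 19 of 96 resting-only regions, 19.8% (12.4 to 29.2), had a gained region within 10 kb.

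The strongest gained regions within 1 kb of a resting region included a broad region from 129131594 to 129133969 on chromosome 6. It was 2375 bp wide with a z score of 24.6, and it lay 0.504 kb from a resting region. The next lay from 29530352 to 29531700 and from 34776443 to 34777141 on chromosome 17, with z scores of 22.5 and 22.4. All 3 met RelA at 3 h, and so did 24 of the 46 gained regions within 1 kb, these 3 included. Of all gained regions 37.2% met RelA. The share was 42.6% (37.4 to 47.9) within 10 kb of a resting region and 36.9% (35.7 to 38.2) farther away. The 3 were named for their z scores, and RelA was met more often by stronger regions. The 3 gained regions farthest from any resting region were on the X chromosome, where the resting list was sparse. The first, from 90877591 to 90877904, lay 40570 kb away and had a z score of 10.3.

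**Figure D4:**
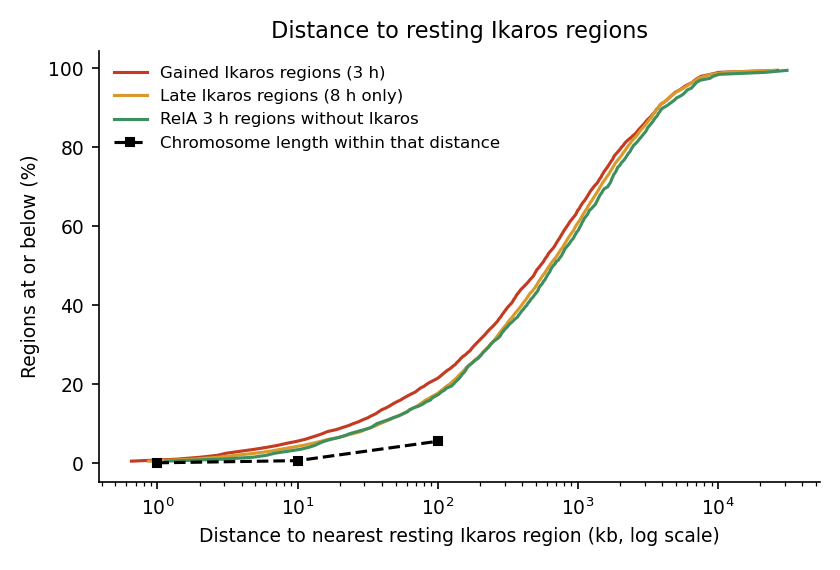
Cumulative share of regions (vertical axis, %) by distance to the nearest resting Ikaros region (horizontal axis, kb, log scale), for gained Ikaros regions at 3 h (n = 6359), Ikaros regions first listed at 8 h (n = 7914) and RelA regions at 3 h without Ikaros (n = 2284). Black squares give the share of chromosome length within 1, 10 and 100 kb of a resting region. At 10 kb the gained curve stands at 5.61% and the squares at 0.632%.

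Gained regions were spread over the chromosomes much as the resting regions were. Ikaros was listed on 20 chromosomes at both times, all but the Y chromosome of the 21 in the files. At 3 h chromosome 2 held the most regions (627), and at 0 h it also did (92). Relative to length, chromosome 11 was densest, with 5.05 regions per Mb at 3 h and 0.682 at 0 h, or 1.88 and 2.11 times the average over all chromosomes. Chromosome 19 followed at 3 h, with 4.11 per Mb, against 0.473 at 0 h. The X chromosome was sparsest, with 0.858 regions per Mb at 3 h and 0.0780 at 0 h. It held 2.08% (1.74 to 2.46) of gained and 1.47% (0.734 to 2.61) of shared regions on 6.31% of chromosome length.

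The share of 3 h regions already listed at 0 h was similar between chromosomes. It ran from 7.62% (5.04 to 11.0) on chromosome 17 to 13.5% (9.63 to 18.2) on chromosome 15, against 10.6% over all. On 1 of the 20 chromosomes the interval left out the overall share. This was chromosome 2, with 13.2% (10.7 to 16.1). The share of the list on a chromosome differed between the times, beyond the interval of the difference, on 1 chromosome as well. Chromosome 15 held 3.76% of regions at 3 h and 5.28% at 0 h, a difference of -1.52 percentage points (-3.29 to -0.0417). Both comparisons drew a 95% interval for each chromosome, with no allowance for the number of chromosomes. The interval of the difference also treats the lists as separate, though 757 of the 853 resting regions met a 3 h region.

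**Figure D5:**
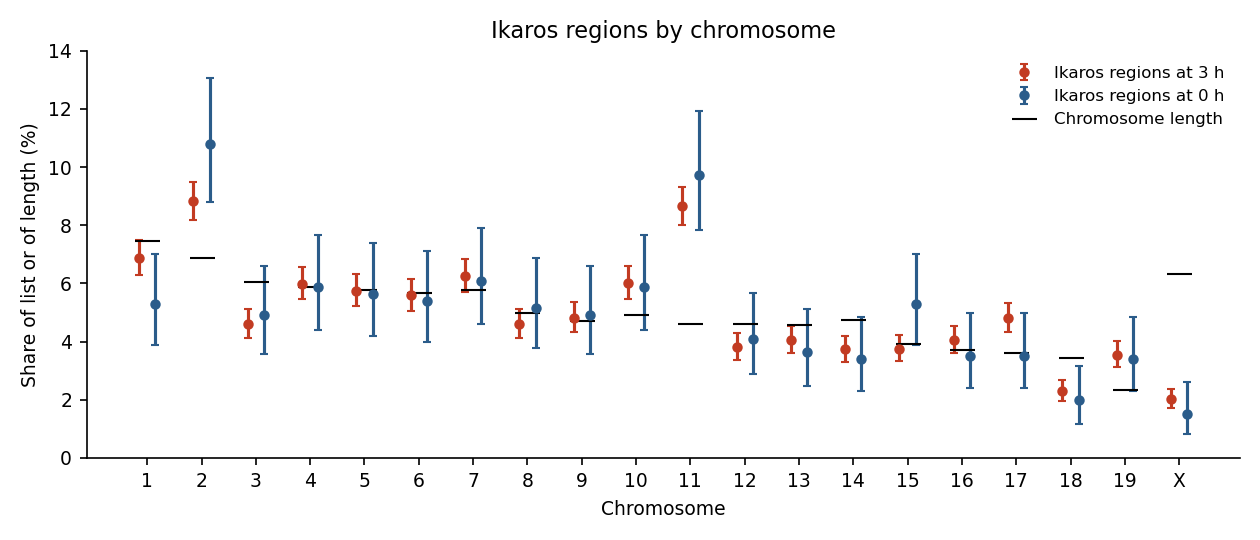
Share of the Ikaros list on each chromosome (vertical axis, %) at 3 h (n = 7109) and at 0 h (n = 853), with 95% exact intervals as bars, and the share of chromosome length as black dashes. Chromosome 11 lies above its share of length at both times and the X chromosome below it, with 2.01% of the 3 h list on 6.31% of length.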

How the data were processed

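Ikaros hotspots were compared between 2 wild-type libraries, LPS for 3 h and for 0 h, of bone-marrow-derived macrophages. Per the submitters' processing notes the build is mm9 and CASAVA was used. How reads were aligned, how hotspots were called and at what threshold, and whether input was subtracted, is not given in the sources used here. Per the file headers each region has coordinates, a highest and a mean tag density (a signal that the authors deposited without its scale), a z score deposited by the authors and a deposited p-value, which equals the 2-sided normal p of that z score. Whether starts count from 0 or 1 is not stated, so coordinates are as deposited and width is end minus start. Depth is unknown.

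A region sharing at least 1 bp with an untreated wild-type input region was dropped, and the same overlap matched regions between lists. Distances run edge to edge. Shares carry exact Clopper-Pearson 95% intervals and medians exact order-statistic intervals, and a difference takes its interval from both. Chromosome length is the highest end coordinate in any file. No p-value between times is given, with 1 library per group. Regions were named by strength, width, distance, number of resting regions met and rank change. Gene coordinates and a genome on mm9 were not used here, so no gene or sequence is assigned. The members and measures were chosen with earlier results of these data known. Python 3.11.15, numpy 2.4.6, pandas 2.3.3, scipy 1.17.1 and matplotlib 3.10.9 were used. Overlaps were checked on simulated lists against bedtools 2.31.1, and distances against a direct search. Alternatives covered input removal, overlap, z score floor, list length, chromosomes and how distance is measured.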

Additional observations from a re-analysis of the deposited data

How the results depend on the processing

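Each of 22 results was recomputed under the alternatives that apply, giving 168 values, of which 110 stayed within the main value's interval or, for counts, within 1.5 times, 57 moved and 1 changed sign. The cause was not tested except where the list was shortened by construction. With a reciprocal overlap of at least 50%, 68.3% of 0 h regions were listed at 3 h and 8.20% of 3 h regions at 0 h. Median width differed by -158 bp between gained and shared and by -176.5 bp between resting-only and shared regions, whose z score differed by -3.08 and MaxD percentile by -35.5. Gained regions then lay within 1, 10 and 100 kb of a resting region in 3.26, 8.03 and 23.5% of cases, at a median of 504 kb. They lay within 10 kb 3.17 points more often than late Ikaros regions, defined by the same 50% rule. Of resting-only regions, which here included those that met a 3 h region by less, 85.2% were listed at 8 h, where any overlap of at least 1 bp counted. Counting gaps of up to 500 bp as shared left 0.363% of gained regions within 1 kb, and measuring centre to centre left 0.299%.

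With z scores of at least 15 the lists held 2867 regions at 3 h and 284 at 0 h, with 90.8% of 0 h regions listed at 3 h and 8.96% of 3 h regions at 0 h. Gained minus shared was -91 bp in width and -14.3 in z score, and resting-only minus shared was -32.5 bp and -3.91. Gained regions lay within 1, 10 and 100 kb in 0.421, 2.72 and 9.69% of cases, at a median of 2119 kb, and 1.26% were on the X chromosome.

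With the 3 h list held to 853 regions by z score, 46.4% of 0 h regions were listed at 3 h and 45.6% of 3 h regions at 0 h. Gained minus shared was 17 bp (the change of sign), -5.17 in z score and -25.6 in MaxD percentile, and resting-only minus shared was -2.73 in z score. Gained regions lay within 1 kb in 0.216% and within 100 kb in 23.3% of cases, at a median of 453 kb. They lay within 10 kb 1.28 points more often than RelA regions without Ikaros in the shortened 3 h list or at 0 h. The X chromosome held 1.08% of gained regions, and 88.8% of resting-only regions were listed at 8 h.

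With the 3 h list held to 853 regions by MaxD, 44.3% of 0 h regions were listed at 3 h and 43.5% of 3 h regions at 0 h. Gained minus shared was -12.5 bp, -6.50 in z score and -27.7 in MaxD percentile, and resting-only minus shared was -3.31 in z score. Gained regions lay within 1, 10 and 100 kb in 1.04, 8.09 and 30.3% of cases, at a median of 319 kb. Within 10 kb this was 3.42 points more than late Ikaros and 3.54 more than RelA without Ikaros. Both of these sets were formed anew against the shortened list. The X chromosome held 0.415% of gained and 0.539% of shared regions, 89.3% of resting-only regions were listed at 8 h, and the RelA difference within quintiles was 24.1 points. In the full 3 h list, with quintiles of z score, the difference was 13.3 points against RelA of littermate cells and 18.9 against wild-type RelA. The RelA, breadth and 8 h alternatives and those of the 10 kb differences were chosen after seeing the data.

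With 1 library per group none was left out, and read depth, which is unknown, cannot be told apart from time. No paired analysis was possible because each group has 1 library. Assignment of regions to genes was not run.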
